A study of Homo sapiens with 2 samples.

Results

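ZEB1 and ZEB2 are large genes whose introns and flanks can hold regulatory sites far from the promoter. They were examined here for peaks of TRPS1 binding along the whole gene and 100 kb beyond each end. The window of ZEB1 (ENSG00000148516) was chr10:31507424-31918742 of hg19, 411 kb around a gene body of 211 kb on the plus strand. The window of ZEB2 (ENSG00000169554) was chr2:145021931-145378624, 357 kb around a gene body of 157 kb on the minus strand. A peak was counted as a member when its midpoint lay inside one of these windows. This gave 56 of the 173304 peaks of TRPS1-WT cells and 83 of the 325573 peaks of TRPS1-MT cells on chromosomes 1 to 22, X and Y.

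The cells were HCT116, a human colorectal carcinoma cell line with little TRPS1 of its own, in which a lentiviral vector stably expressed Flag-tagged TRPS1, either wild type (TRPS1-WT) or with the R544Q substitution (TRPS1-MT). The binding of the introduced protein was mapped with a Flag antibody by CUT&Tag, in which the antibody brings a Tn5 transposase to the chromatin and the DNA cut nearby is sequenced. Both lines thus carried the same vector, tag and puromycin selection, and the peaks are those of the ectopic protein, at the level the vector gave. There was 1 library per condition and a peak list without Flag-tagged protein was not analysed here, so the values compare 2 libraries and no test between the conditions was possible. Each peak is described by the tags at its summit, the number of sequenced fragments piled up at its highest point, which was recovered from the fold over background and the −log10 p that the authors' peak caller gave. Intervals are exact Poisson intervals for tags, exact binomial intervals for ratios and Wilson intervals for shares, all at the 95% level, and they cover counting error only. Tags of the libraries are not on 1 scale. Peaks were at least 168 bp wide in TRPS1-WT cells and at least 280 bp in TRPS1-MT cells. Over 52620 pairs of overlapping peaks, the tags of TRPS1-MT cells divided by those of TRPS1-WT cells had a median of 1.33, with quartiles at 0.938 and 1.95, and this median is the yardstick for the ratios given for single sites.

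ZEB1 and ZEB2 encode zinc finger homeobox repressors that drive epithelial to mesenchymal transition (EMT). They bind paired E-box sequences in genes such as CDH1, which encodes E-cadherin, and recruit corepressors of the CtBP family. They are held down by the miR-200 family, whose genes they repress in turn. TRPS1 is an atypical member of the GATA family with a single GATA-type zinc finger and acts mostly as a repressor. ZEB1-AS1 and ZEB2-AS1 are long noncoding RNAs that start beside the promoters of ZEB1 and ZEB2 on the opposite strand.

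The sites on which the results turn lie outside the canonical promoters, and the 201 bp around the summits of 9 of them are shown as the plus strand of GRCh37. Capitals mark matches, on either strand, to the consensus of a family of transcription factors. The ZEB and SNAI E-box was searched as CAGGTA or CAGGTG. The consensus of the GATA family, to which TRPS1 belongs, was searched as AGATAA or AGATAG, and the variants of these with T as the first letter were TGATAA or TGATAG. The AP-1 consensus was TGACTCA or TGAGTCA. The TEAD consensus was GGAATG and that of SP and KLF factors was GGGCGG, and CTCF was searched by its longer core, which none of these windows held. The first 5 are strong sites of each gene that were found in both lists, and of these the flank sites and the ZEB1 +71.8 kb site were added after their values were seen. Distances are from the canonical transcription start site (TSS), positive in the direction of transcription.
ZEB1 −76.2 kb, chr10:31531836-31532036: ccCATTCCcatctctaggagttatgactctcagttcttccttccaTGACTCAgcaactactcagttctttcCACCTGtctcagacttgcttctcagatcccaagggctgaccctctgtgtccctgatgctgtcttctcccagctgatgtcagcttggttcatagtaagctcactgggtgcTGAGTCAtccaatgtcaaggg
ZEB1 +34.6 kb, chr10:31642615-31642815: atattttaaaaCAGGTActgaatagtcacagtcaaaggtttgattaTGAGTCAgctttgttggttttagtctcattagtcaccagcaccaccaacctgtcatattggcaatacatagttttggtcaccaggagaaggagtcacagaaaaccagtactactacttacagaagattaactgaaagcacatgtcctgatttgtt
ZEB1 +71.8 kb, chr10:31679813-31680013: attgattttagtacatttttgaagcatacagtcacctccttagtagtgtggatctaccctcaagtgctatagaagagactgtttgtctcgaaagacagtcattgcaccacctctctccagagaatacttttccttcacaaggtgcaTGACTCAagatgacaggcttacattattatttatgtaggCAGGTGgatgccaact
ZEB2 +67.3 kb, chr2:145210237-145210437: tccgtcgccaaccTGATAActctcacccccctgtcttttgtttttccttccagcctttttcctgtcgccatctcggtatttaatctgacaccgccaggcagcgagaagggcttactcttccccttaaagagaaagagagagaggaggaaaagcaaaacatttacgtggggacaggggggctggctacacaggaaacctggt
ZEB2 +162 kb, chr2:145115533-145115733: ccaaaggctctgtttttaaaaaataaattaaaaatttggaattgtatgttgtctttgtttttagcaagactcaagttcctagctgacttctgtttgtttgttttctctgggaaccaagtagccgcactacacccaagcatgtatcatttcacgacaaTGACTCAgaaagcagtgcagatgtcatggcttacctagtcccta
The next 4 are the strongest sites, by −log10 p, found in 1 list alone, which means that no peak of the other list overlaps them. The ZEB1 +21.4 kb peak nevertheless lies 9 bp from a TRPS1-MT peak. The ZEB1 +21.4 kb and ZEB2 +167 kb sites are from TRPS1-WT cells and the other pair from TRPS1-MT cells.
ZEB1 +21.4 kb, chr10:31629478-31629678: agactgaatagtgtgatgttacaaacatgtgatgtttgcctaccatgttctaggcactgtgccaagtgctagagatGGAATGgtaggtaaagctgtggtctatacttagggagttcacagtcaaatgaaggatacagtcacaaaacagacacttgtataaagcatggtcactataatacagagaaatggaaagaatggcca
ZEB1 +55.3 kb, chr10:31663305-31663505: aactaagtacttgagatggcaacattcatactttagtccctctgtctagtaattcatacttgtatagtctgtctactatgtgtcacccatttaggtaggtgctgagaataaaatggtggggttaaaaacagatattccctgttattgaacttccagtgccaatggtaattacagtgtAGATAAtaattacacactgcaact
ZEB2 +167 kb, chr2:145110964-145111164: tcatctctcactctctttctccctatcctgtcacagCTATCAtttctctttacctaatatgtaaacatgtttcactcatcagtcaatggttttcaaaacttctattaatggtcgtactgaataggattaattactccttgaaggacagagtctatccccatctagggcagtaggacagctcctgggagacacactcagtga
ZEB2 +204 kb, chr2:145073525-145073725: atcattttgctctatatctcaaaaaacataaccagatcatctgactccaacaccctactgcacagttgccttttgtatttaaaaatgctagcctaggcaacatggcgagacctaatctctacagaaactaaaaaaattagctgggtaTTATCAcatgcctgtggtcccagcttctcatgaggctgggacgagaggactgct

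The ZEB1 window held 33 TRPS1-WT peaks and 42 TRPS1-MT peaks, and the ZEB2 window 23 and 41. With the TRPS1-MT list cut to its strongest 173304 peaks, its counts were 19 at ZEB1 and 20 at ZEB2, below those of TRPS1-WT cells. By place, the ZEB1 peaks of TRPS1-WT cells were 1 at the canonical promoter, 1 at an alternative TSS, 2 in exons, 19 in introns, 3 in the 5′ flank and 7 in the 3′ flank. Those of TRPS1-MT cells were 1, 3, 2, 14, 5 and 17 in the same order. At ZEB2, TRPS1-WT cells had no peak at the canonical promoter, 2 at alternative TSSs, 1 in an exon, 8 in introns, 3 in the 5′ flank and 9 in the 3′ flank, and TRPS1-MT cells had 1, 2, 2, 12, 13 and 11. Promoters reached from 2 kb upstream to 1 kb downstream of a TSS, and GENCODE gives 21 TSSs for ZEB1 and 46 for ZEB2.

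**Figure D1:**
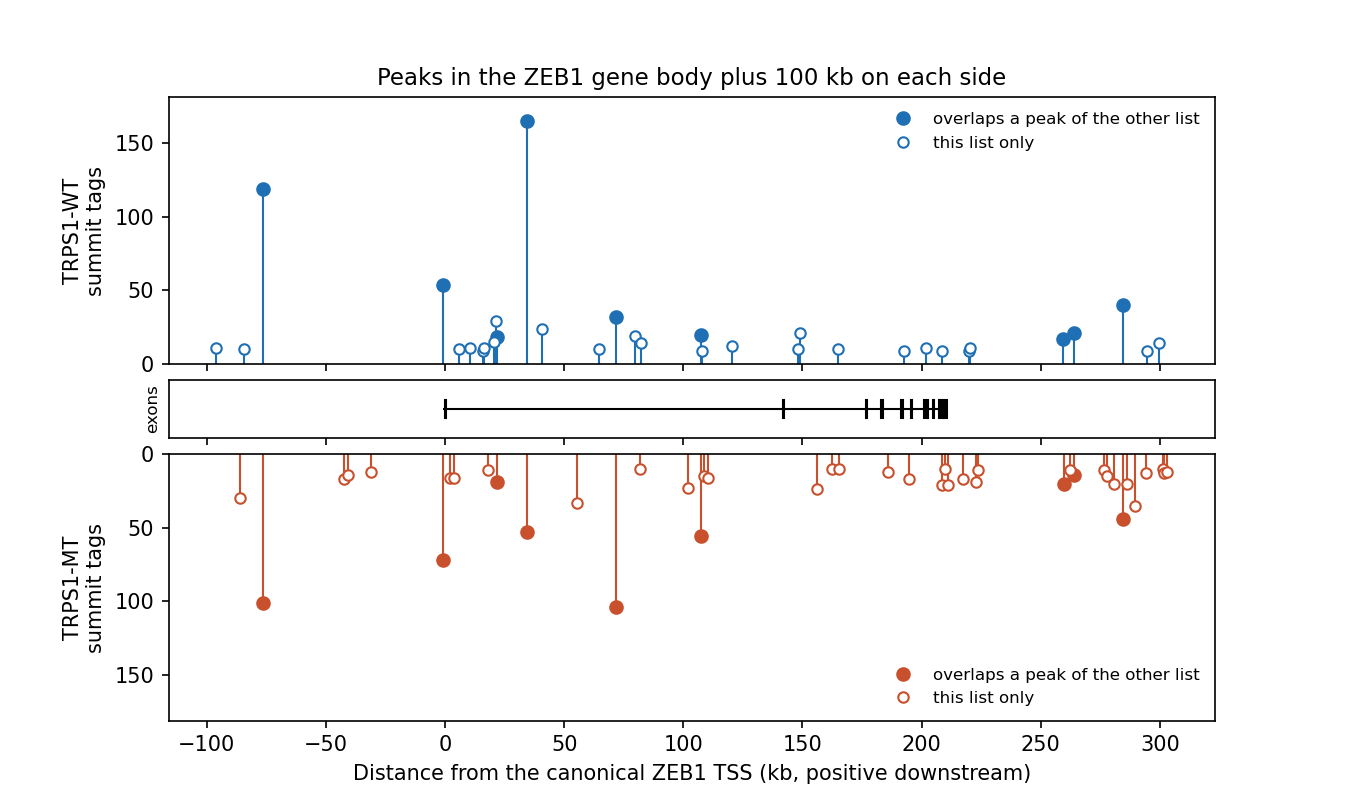
Summit tags (y axis) of each peak in the ZEB1 window against distance from the canonical TSS in kb (x axis), TRPS1-WT upward and TRPS1-MT downward, with the exons of the canonical transcript between them. Filled points overlap a peak of the other list; the tallest TRPS1-WT peak (165 tags) is at +34.6 kb and the tallest TRPS1-MT peak (104 tags) at +71.8 kb, both in intron 1.

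At the canonical promoter, ZEB1 had a peak in both libraries and ZEB2 in TRPS1-MT cells only. Over 20163 protein-coding genes, 48.5% had a canonical promoter peak in both lists and 15.4% in the TRPS1-MT list only, so both patterns are common ones. The ZEB1 peak had 54 tags in the TRPS1-WT library (40.6 to 70.5) and 72 in the TRPS1-MT library (56.3 to 90.7). The ratio was 1.33 (0.924 to 1.93), equal to the median ratio of the lists. Both peaks began about 1 kb upstream of the TSS but ended at different places. The TRPS1-WT peak ran from −1039 to −119 and covered 82 bp of the stretch from −200 to +200 around the TSS. The TRPS1-MT peak ran from −1038 to −524 and ended 323 bp short of that stretch. Their summits were 104 bp apart, at −893 and −789. Both summits also lie in ZEB1-AS1, and binding at one promoter cannot be told apart from binding at the other.

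The ZEB2 promoter peak of TRPS1-MT cells was weak, with 13 tags (6.92 to 22.2) and a −log10 p above that of 27.4% of its list. It ran from −311 to −32 and covered 169 bp of the stretch from −200 to +200. TRPS1-WT cells had no peak over that stretch, and the nearest one, at −2880 to −2713, had 9 tags and lay 2512 bp away. That peak is upstream of the first TSS of ZEB2 at −938 bp and inside LINC01412, a long noncoding RNA. With 13 tags the TRPS1-MT peak is close to the smallest number called for that list in these windows, which was 10. The TRPS1-WT peak, with 9 tags, is at the smallest number called for its own list there.

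**Figure D2:**
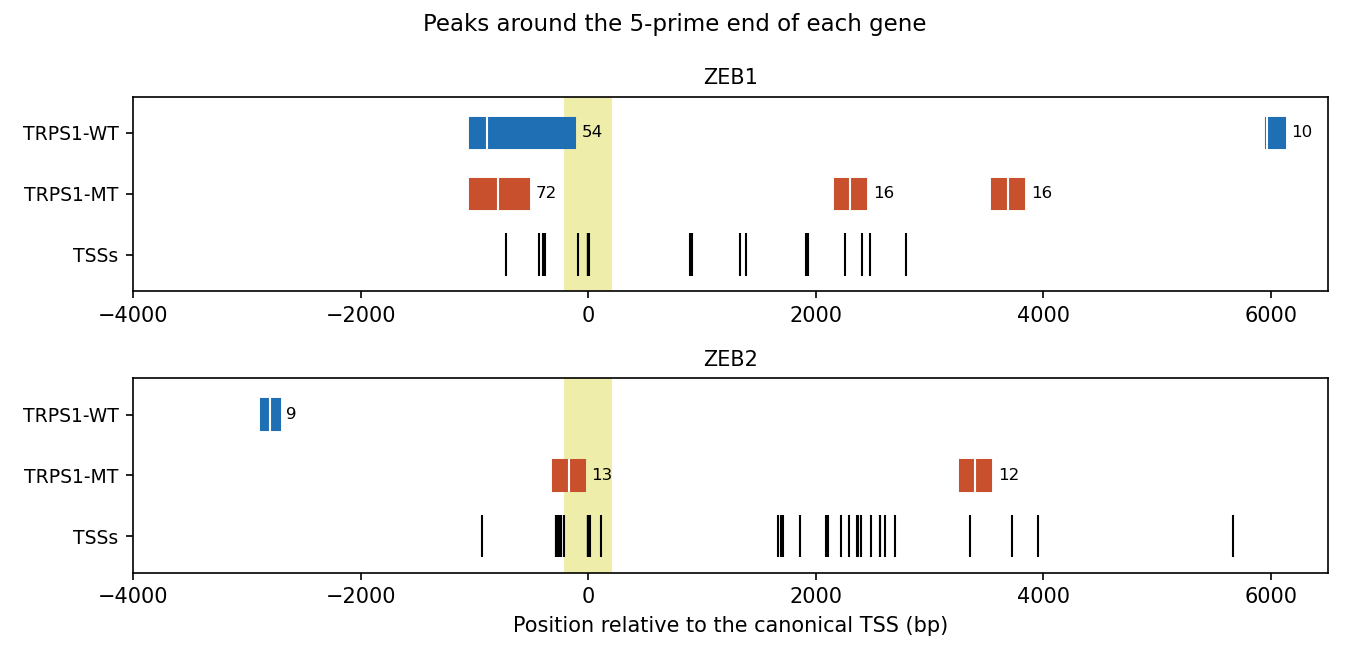
Peaks (bars, with a white line at the summit and the summit tags beside them) of each library around the canonical TSS of ZEB1 and ZEB2, with all annotated TSSs as ticks and position in bp on the x axis. The shaded stretch is −200 to +200; at ZEB1 the TRPS1-WT peak enters it and at ZEB2 the TRPS1-MT peak does.

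Beyond the canonical promoter, the strongest TRPS1-WT peak of either window was in intron 1 of ZEB1, and it was weaker in TRPS1-MT cells. It lay at chr10:31642485-31643031 with 165 tags (141 to 192), and the TRPS1-MT peak at chr10:31642044-31643010 had 53 (39.7 to 69.3). The intervals do not overlap. The ratio was 0.321 (0.231 to 0.44), or 0.241 times the median ratio (0.173 to 0.33). The site counts as an alternative TSS because a ZEB1 transcript for which no coding sequence is defined starts at +35928 bp. The TRPS1-MT peak was the widest of its list in the window, at 967 bp, and its summit was 204 bp from that of TRPS1-WT cells. The other peaks at alternative TSSs of ZEB1 were in TRPS1-MT cells, at +2.31 and +3.69 kb, with 16 tags each.

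Further along intron 1, the difference ran the other way at 2 sites. At +71.8 kb the peak had 32 tags in the TRPS1-WT list (21.9 to 45.2) and 104 in the TRPS1-MT list (85.0 to 126), a ratio of 3.25 (2.17 to 4.99) and 2.44 times the median (1.63 to 3.75). At +107 kb it had 20 tags (12.2 to 30.9) and 56 (42.3 to 72.7), a ratio of 2.8 (1.65 to 4.93) and 2.1 times the median (1.24 to 3.69). At both sites the intervals of the tags do not overlap. The local background moved with them, at 1.46 tags in TRPS1-WT cells against 4.2 in TRPS1-MT cells at +71.8 kb and 1.29 against 3.5 at +107 kb, and its part in the tag ratios was not tested. As fold over that background the ratios were 1.51 and 1.38, or 1.63 and 1.49 times the median of fold ratios (0.926). The weaker TRPS1-MT peaks at +109 and +110 kb, with 15 and 16 tags, also had a background of 3.5, against 1.77 as the most common value of that list. Whether a strong peak raised its own background, and so lowered its fold, was not tested. At +34.6 kb the background was higher in TRPS1-WT cells (5.38 against 3.86 tags) and the fold ratio was 0.426. A 4th shared site of intron 1, at +21.8 kb, had 18 and 19 tags, and its peaks overlapped by 20 bp.

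Intron 1 is 142 kb long and held 16 TRPS1-WT peaks and 12 TRPS1-MT peaks, alternative TSSs included, or 11.3 and 8.47 per 100 kb. Of those found in 1 list alone, the strongest of TRPS1-WT cells was at +21.4 kb with 29 tags (19.4 to 41.6), 9 bp from the edge of a TRPS1-MT peak. The next was at +40.9 kb with 24 tags, near the start of the pseudogene SPTLC1P1. In TRPS1-MT cells the strongest was at +55.3 kb with 33 tags (22.7 to 46.3) and a −log10 p of 30.8. More tags but a lower −log10 p were at +290 kb in the 3′ flank, with 35 tags (24.4 to 48.7) and 27.1. The other introns are shorter: intron 2, of 34.5 kb, had 3 in each list (8.69 per 100 kb), intron 4 had 1 in TRPS1-MT cells, intron 5 had 1 in each, and introns 3, 6, 7 and 8 had none.

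Upstream of ZEB1, the second strongest site of both lists lay at −76.2 kb, inside the bodies of LINC02664 and ZEB1-AS1, with 119 tags for TRPS1-WT (98.6 to 142) and 101 in TRPS1-MT cells (82.3 to 123). Relative to the median the ratio of 0.849 (0.645 to 1.12) was 0.637 (0.483 to 0.837). From there to the promoter TRPS1-WT cells had no peak for 74.9 kb, the longest such stretch of that list in the window. TRPS1-MT cells had 3 peaks in it, at −42.2, −40.7 and −31.1 kb, with 17, 14 and 12 tags. Downstream of the gene 3 sites were shared. They had 17 and 20 tags at +259 kb, 21 and 14 at +264 kb, and 40 and 44 at +285 kb, TRPS1-WT first, and the intervals overlapped at each. The last lies at the TSS of ENSG00000223834, a long noncoding RNA.

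ZEB2 had fewer shared sites, and the TRPS1-WT peaks there were weak. None of its 23 TRPS1-WT peaks was among the strongest 25% of that list, and their tags ranged from 9 to 19 with a median of 13. In the ZEB1 window 9 of 33 TRPS1-WT peaks were among these, and tags ranged from 9 to 165 with a median of 12. In TRPS1-MT cells 11 peaks of each window were among the strongest 25% of the list, with up to 104 tags at ZEB1 and 61 at ZEB2.

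**Figure D3:**
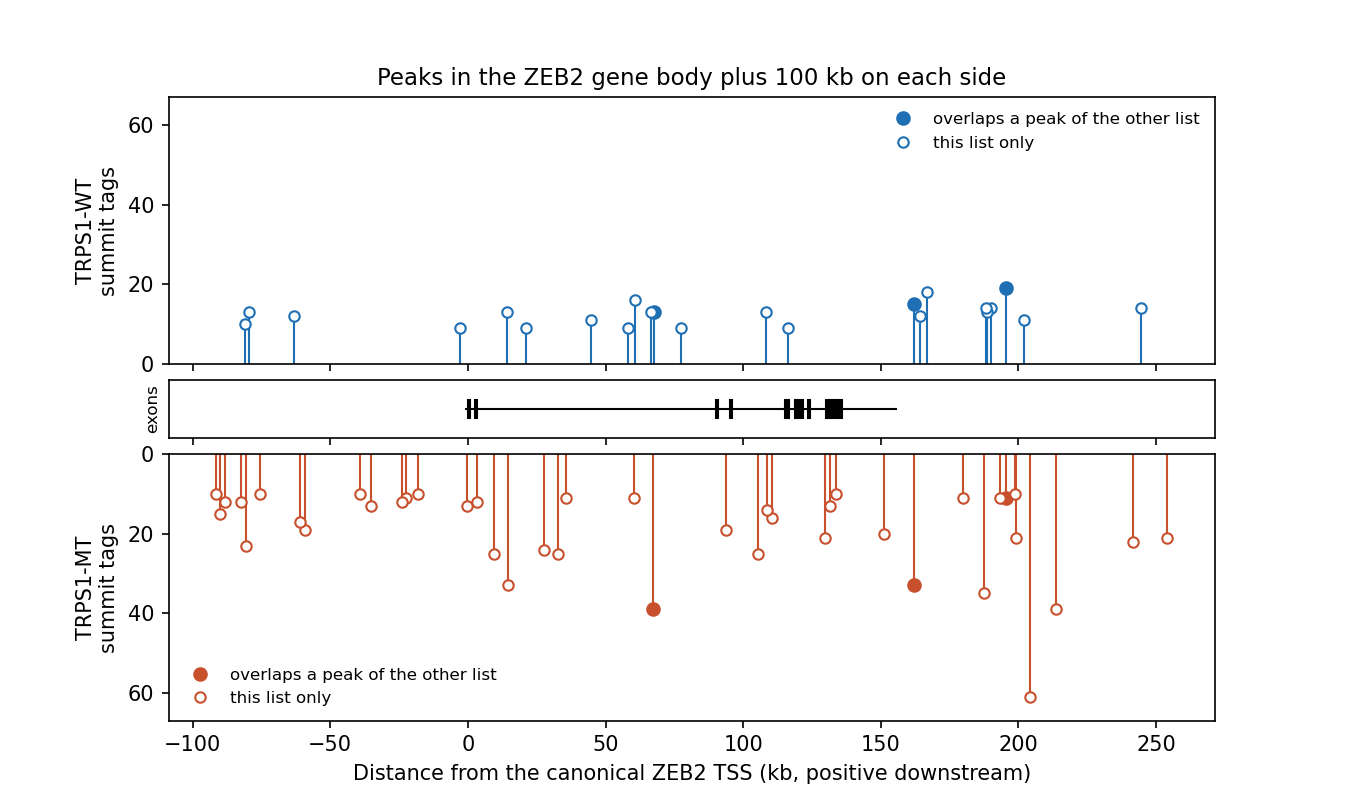
Summit tags (y axis) of each peak in the ZEB2 window against distance from the canonical TSS in kb along the direction of transcription (x axis), TRPS1-WT upward and TRPS1-MT downward, with the exons of the canonical transcript between them. TRPS1-WT peaks stay at or below 19 tags, while 6 TRPS1-MT peaks have 33 to 61.

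The shared site inside ZEB2 lay in intron 2, at chr2:145210131-145210374 in TRPS1-WT cells with 13 tags (6.92 to 22.2) and at chr2:145210094-145210580 in TRPS1-MT cells with 39 (27.7 to 53.3). The summits were 125 bp apart, at +67.5 and +67.3 kb. The intervals do not overlap, and the ratio was 3.0 (1.57 to 6.13), or 2.25 times the median (1.18 to 4.59). Its fold ratio was 2.17. Downstream of the gene, the site at +162 kb had 15 tags (8.4 to 24.7) and 33 (22.7 to 46.3), a ratio of 2.2 (1.16 to 4.36) and 1.65 times the median (0.872 to 3.27). The site at +195 kb, in GTDC1, which encodes a glycosyltransferase-like protein, had 19 tags (11.4 to 29.7) and 11 (5.49 to 19.7), a ratio of 0.579 (0.249 to 1.28) and 0.434 times the median (0.187 to 0.96). The tag intervals overlap at these last sites, although at +195 kb the interval of the ratio lay below the median.

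The other strong peaks at ZEB2 were in 1 list alone. In TRPS1-MT cells they were at +204 kb in GTDC1 with 61 tags (46.7 to 78.4), at +214 kb with 39 and in intron 2 at +14.6 kb with 33. The peak at +14.6 kb lay 60 bp from a TRPS1-WT peak of 13 tags. The widest, of 749 bp, lay at +187 kb over a TSS of GTDC1 with 35 tags. In TRPS1-WT cells the strongest was at +167 kb with 18 tags (10.7 to 28.4), followed by one in intron 2 at +60.6 kb with 16 tags and by 3 equal ones of 14 tags at +188, +190 and +244 kb. Peaks at alternative TSSs had 9 tags in TRPS1-WT cells, at +116 and −2.8 kb, and 12 and 11 tags in TRPS1-MT cells, at +3.4 and +35.8 kb. Intron 2, of 87.3 kb, held 8 peaks in each list. The 5′ flank held 13 TRPS1-MT peaks of 10 to 23 tags and 3 TRPS1-WT peaks of 10 to 13 tags. TRPS1-WT cells had no peak for 60.3 kb upstream of −2.88 kb.

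Across both windows 12 sites were found in both lists. At ZEB1 they were 9 of 33 TRPS1-WT peaks (27.3%, 15.1 to 44.2), and at ZEB2 3 of 23 (13.0%, 4.54 to 32.1), against 30.4% of the whole TRPS1-WT list. Of the TRPS1-MT peaks they were 9 of 42 (21.4%, 11.7 to 35.9) and 3 of 41 (7.32%, 2.52 to 19.4), against 15.8% of the whole TRPS1-MT list. The share of the list lies within the interval for ZEB1 and for ZEB2 in each library. The share of shared peaks rose with strength in the lists as a whole. Among the strongest 25% of the TRPS1-WT list, 73.0% were shared, and so were 6 of 9 ZEB1 peaks. Among the strongest 25% of the TRPS1-MT list, 42.4% were shared, and so were 6 of 11 ZEB1 peaks but 2 of 11 ZEB2 peaks. The strongest TRPS1-MT peak at ZEB2, of 61 tags, was in that list alone, while the shared site at +195 kb had 11.

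Of the 12 shared sites 3 had a ratio at least 2 times the median (ZEB1 +71.8 and +107 kb, ZEB2 +67.5 kb), where 11.2% of all overlapping pairs did. Another 3 had a ratio of at most 0.5 times the median (ZEB1 +34.6 and +264 kb, ZEB2 +195 kb), where 10.4% of all pairs did. The ZEB1 +264 kb site lies on that limit, at 0.5 (0.235 to 1.03). The tally depends on the scale. By fold over its median 1 site was higher (ZEB2 +67.5 kb, 2.34) and 2 were lower (ZEB1 +34.6 kb, 0.46, and ZEB2 +195 kb, 0.44), where 6.4% and 4.7% of all pairs were. By tags without the median 4 were higher and 1 lower. By tags, ratios well above and well below the median thus stood in the same intron of ZEB1. By fold, the sites above it there, at +71.8 and +107 kb, were 1.63 and 1.49 times the median. No replicate gives the spread of these ratios between cultures.

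**Figure D4:**
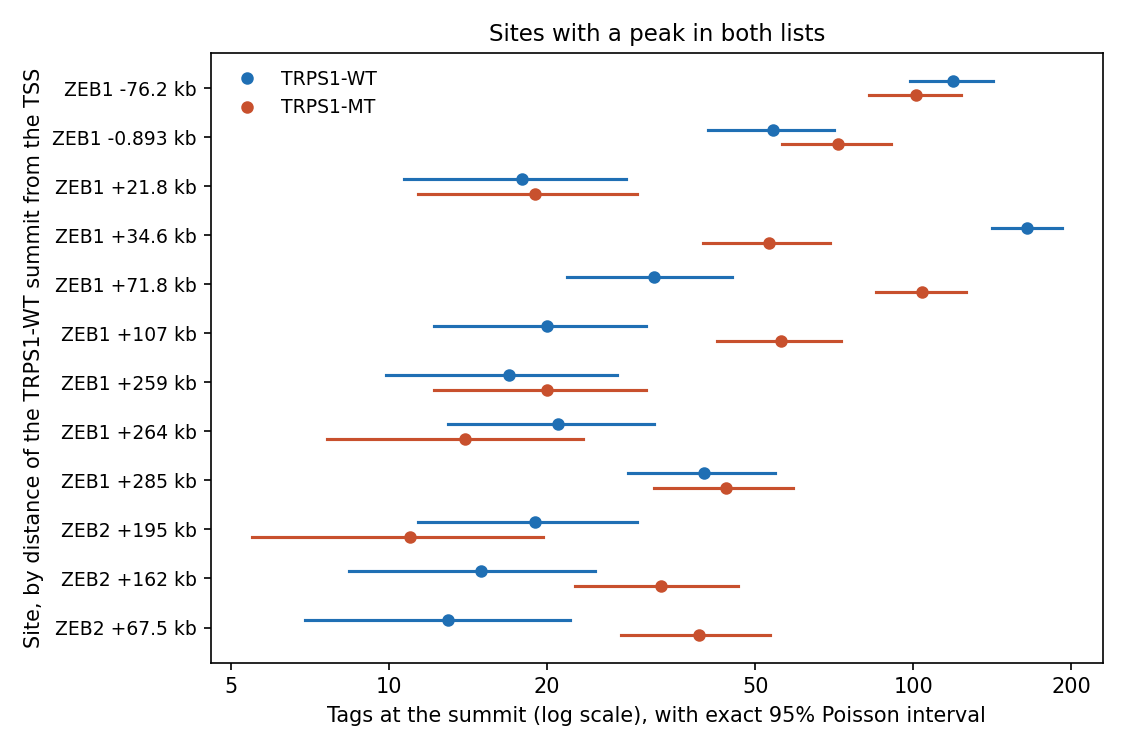
Tags at the summit (x axis, log scale) of the 12 sites with a peak in both lists, with exact 95% Poisson intervals as lines, in TRPS1-WT and TRPS1-MT cells. The intervals are apart at ZEB1 +34.6 kb (165 against 53 tags), +71.8 kb (32 against 104) and +107 kb (20 against 56) and at ZEB2 +67.5 kb (13 against 39). The tags are not scaled between libraries. Relative to the median ratio, the intervals at ZEB1 −76.2 kb (0.483 to 0.837) and ZEB2 +195 kb (0.187 to 0.96) also leave out 1.

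Set against other genes, the rank of the ZEB1 window depended on the setting for TRPS1-WT peaks and was in the lower part for TRPS1-MT peaks. It had 8.02 TRPS1-WT peaks per 100 kb, more than 49.3% of 20163 protein-coding genes treated the same way, whose median was 8.09. With −log10 p of at least 10 that share was 30.3%, and for the gene body without flanks 72.4%. It had 10.2 TRPS1-MT peaks per 100 kb, more than 19.1% of genes, whose median was 14.7. The ZEB2 window had 6.45 and 11.5 peaks per 100 kb, more than 30.5% and 26.0% of genes, and its body without flanks exceeded 45.9% in TRPS1-WT cells. Against the 2839 protein-coding genes with a body of 100 to 300 kb the shares were 56.7% and 17.0% for ZEB1 and 32.0% and 25.7% for ZEB2.

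**Figure D5:**
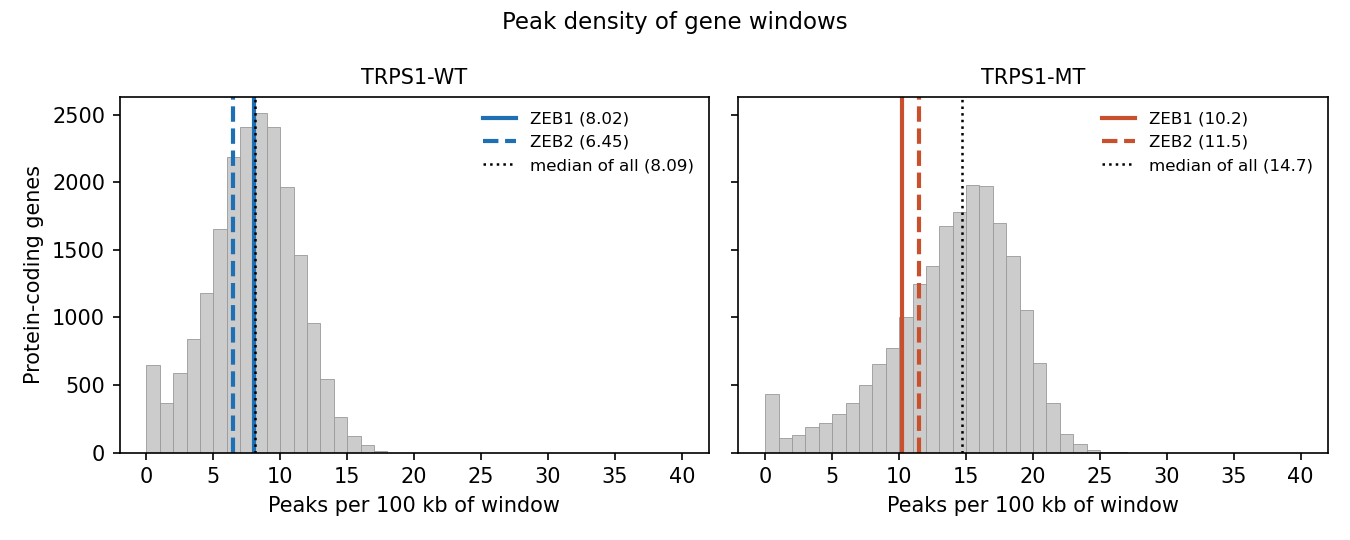
Number of protein-coding genes (y axis) by peaks per 100 kb of the gene body plus 100 kb on each side (x axis), for each library. In TRPS1-WT cells ZEB1 (8.02) is beside the median of all genes (8.09) and ZEB2 (6.45) below it; in TRPS1-MT cells both (10.2 and 11.5) are below the median (14.7).

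Within the gene body ZEB1 had more TRPS1-WT than TRPS1-MT peaks, 23 against 19, although the TRPS1-MT list is the longer. The ratio was 1.21, against 0.532 for the lists and 0.559 for the 1 Mb on each side of the gene, which held 167 and 299 peaks. Of the 2839 genes of 100 to 300 kb, 2.04% had more TRPS1-WT than TRPS1-MT peaks in the body, a comparison chosen after the counts were seen. One of the 23 is the promoter peak, whose midpoint fell inside the annotated body in TRPS1-WT cells and outside it in TRPS1-MT cells. Most of these peaks were weak. With −log10 p of at least 10 the counts were 10 and 9, and 4.19% of such genes had more TRPS1-WT peaks. With the TRPS1-MT list cut to its strongest 173304 peaks they were 23 and 9, and 43.7% did. At ZEB2 the body held 10 and 17 peaks, a ratio of 0.588, and the 1 Mb on each side held 94 and 208, a ratio of 0.452.

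AP-1 sites are bound by FOS and JUN proteins. They lay within 100 bp of the summit at 5 of 56 TRPS1-WT peaks (8.93%, 3.87 to 19.3, against 9.87%) and 4 of 83 TRPS1-MT peaks (4.82%, 1.89 to 11.7, against 5.74%). Among TRPS1-WT peaks they were at 4 of 12 shared sites (ZEB1 −76.2, +34.6 and +71.8 kb, ZEB2 +162 kb) and at 1 of 44 others (ZEB1 +300 kb). In the whole list the shares were 19.1% of shared and 5.86% of other peaks. Among TRPS1-MT peaks they were at 3 of 12 shared sites and at 1 of 71 others, the GTDC1 TSS at +187 kb, where the shares of the list were 15.0% and 4.01%. The difference between shared and other peaks is thus one of the whole lists. Within 50 bp of the summit, a match was left at 1 member in TRPS1-WT cells and at 2 in TRPS1-MT cells. The ZEB1 +34.6 kb site had an AP-1 match within 100 bp of the TRPS1-WT summit and none within 100 bp of the TRPS1-MT summit. The TRPS1-MT peak nevertheless spans that match. The −76.2 kb site carried 2 AP-1 matches, an E-box and a TEAD match.

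E-boxes of the kind that ZEB and SNAI proteins bind were near the summits of 17 of 56 TRPS1-WT peaks (30.4%, 19.9 to 43.3) and 22 of 83 TRPS1-MT peaks (26.5%, 18.2 to 36.9), against 24.4% and 24.2% of the lists. Of the shared sites, 5 had one near the TRPS1-WT summit: the ZEB1 promoter, ZEB1 −76.2, +34.6 and +71.8 kb, and ZEB2 +195 kb. GATA matches were at 18 of 56 (32.1%, 21.4 to 45.2) and 35 of 83 (42.2%, 32.1 to 52.9), against 38.7% and 38.1%. TEAD matches were at 10 peaks in each library (17.9% and 12.0%, against 13.5% and 12.0%). SP and KLF matches were at 1 and 3 peaks (1.79% and 3.61%, against 6.23% and 4.51%). The CTCF consensus was at 0 of 56 and 0 of 83, with upper limits of 6.42% and 4.42%, against 0.58% and 0.247%. Each of these shares of the lists lay within the interval for the members. For GATA, 33.4% of shared peaks in the whole TRPS1-WT list and 33.3% in the TRPS1-MT list had a match. In both lists this was lower than among the other peaks. Among TRPS1-WT members GATA matches were at 3 of 12 shared sites and 15 of 44 others. Among TRPS1-MT members they were at 4 of 12 and 31 of 71. The share in windows away from peaks was not tested. A match is a description of the letters, not of what binds there. Median GC content around the summits was 41.3% at ZEB1 in both libraries, and 42.8% and 40.8% at ZEB2, against 43.8% and 43.3% for the lists.

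The other genes of the ZEB pathway were counted from a list of 29. All had a shared site within the gene body and 100 kb on each side, but so did 94.7% of protein-coding genes. At the canonical promoter 15 had a peak in both libraries, 2 in TRPS1-WT cells only, 5 in TRPS1-MT cells only and 7 in neither, where 48.5%, 7.07%, 15.4% and 29.1% of protein-coding genes did. Of the 29, 5 are miR-200 genes, which the shares of protein-coding genes do not cover. Over the 15, the ratio of TRPS1-MT to TRPS1-WT promoter tags ran from 0.827 to 3.58 with a median of 1.28, and 6 lay above the median ratio of the lists (1.33). MIR200C and MIR141 had the same tags but count as separate entries, and their ratio is that median of 1.28. MIR200A and MIR200B also had the same tags and count separately. Among 10 other EMT transcription factors, SNAI2, TCF3 and PRRX1 had a peak in both, TWIST1 in TRPS1-WT cells only (18 tags), FOXC2 in TRPS1-MT cells only (18 tags), and SNAI1, TWIST2, TCF4, GSC and KLF8 in neither. TCF3, which encodes the E-box factor E2A, had 26 tags with TRPS1-WT and 93 with TRPS1-MT. Among 6 corepressors and partners, SMARCA4, KAT2B, EP300 and SIRT1 had a peak in both, CTBP1 in TRPS1-WT cells only (34 tags) and CTBP2 in neither. EP300, a histone acetyltransferase, had 88 and 77 tags.

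The miR-200 genes lie in 2 clusters. Their promoter windows were taken around the annotated start of each small gene, whose body is 0.068 to 0.095 kb long. The start of any longer precursor transcript was not located. MIR200C and MIR141, whose windows overlap, had peaks in both libraries, with 87 tags for TRPS1-WT and 111 for TRPS1-MT. MIR200A, MIR200B and MIR429 had peaks in these windows in TRPS1-MT cells only, with 10 tags for the first pair and 34 for MIR429. Of 8 genes known to be repressed by ZEB1 or ZEB2, CRB3, EPCAM, PATJ, PKP3, ESRP1 and OVOL2 had a peak in both. LLGL2, a polarity gene, had one in TRPS1-MT cells only (15 tags), and CDH1 in neither. EPCAM, which encodes an epithelial adhesion molecule, had 18 and 47 tags, and the polarity gene PATJ 43 and 82. ESRP1, an epithelial splicing regulator, had 81 and 67, and PKP3, a desmosomal plakophilin, 47 and 39. The 29 windows had a median of 9.23 TRPS1-WT and 16.8 TRPS1-MT peaks per 100 kb, against 8.02 and 10.2 at ZEB1 and 6.45 and 11.5 at ZEB2.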

How the data were processed

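CUT&Tag with a Flag antibody was analysed in 1 library of TRPS1-WT and 1 of TRPS1-MT HCT116 cells, grouped by the genotype labels. The authors removed adapters and poor reads, aligned the rest to hg19 using Bowtie 0.12.8 (also in the submitters' processing notes, with HOMER) and called peaks with MACS. Each library has its own list. The methods name a release before MACS2, while the deposited layout is that of MACS2, whose model was assumed. No control library is named. The deposited values are a fold (a ratio to the local background), −log10 p and −log10 q, and a score made from the q value. The labels name hg19 and hg38; the last peak of each chromosome ended within its hg19 length. Read totals are not given in the sources used here, so depth is known only indirectly, through the tags at summits.

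Genes came from GENCODE release 44 mapped to GRCh37. Summit tags were recovered from fold and −log10 p to within 0.01, except for 3 TRPS1-WT and 2 TRPS1-MT peaks. Peaks on other sequences (105 and 142) were left out. Peaks of the lists were counted as shared at an overlap of 1 bp. On simulated data all of 2000 tags, 500 overlaps and 5 planted sequences were recovered. Sites named one by one were all shared sites, all peaks at a TSS of ZEB1 or ZEB2, the 5 strongest peaks by −log10 p and the widest peak of each list and window, and the strongest peak of 1 list alone by −log10 p, shown as sequence. The ZEB1 sites at −42.2, −40.7, −31.1, +40.9, +109, +110, +290 and +300 kb were named after their values were seen. So were the nearby peaks of the closing observations and the peak near ZEB2 +14.6 kb. Sequences around the promoter summits are not shown, since they overlap first exons. The members, lists and tests were chosen with earlier results of these data known. No p-value was computed. Alternatives were a −log10 p of at least 10, equal numbers of strongest peaks, an overlap of 50%, other flanks, other TSS windows and a narrower summit window. Tables were handled in Python 3.11.15 with pandas 2.3.3 and numpy 2.4.6, intervals came from scipy 1.17.1, sequences were read with pysam 0.24.0 and plots made in matplotlib 3.10.9.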

Additional observations from a re-analysis of the deposited data

How the results depend on the processing

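The counts moved with the threshold on peaks, while the shared counts moved less: all 16 alternatives gave counts of shared peaks within 1.5 times the reported ones. The shares moved because the totals did. With −log10 p of at least 10, 8 of 15 TRPS1-WT and 8 of 22 TRPS1-MT peaks at ZEB1 were shared. At ZEB2 they were 2 of 13 and 2 of 21. With −log10 p of at least 10 the windows held 15 and 22 peaks at ZEB1 and 13 and 21 at ZEB2 (TRPS1-WT and TRPS1-MT), the ZEB1 window exceeded 30.3% of genes in TRPS1-WT cells, and the bodies held 10 and 9, and 5 and 10. With the same number of strongest peaks the TRPS1-MT counts were 19 and 20, so that the TRPS1-WT list no longer had fewer peaks in either window, and in the bodies 9 and 10. The body settings were added after seeing the data. Without flanks the counts that moved were 19 TRPS1-MT peaks at ZEB1 and 10 and 17 at ZEB2, and the share of genes below in TRPS1-WT cells was 72.4% for ZEB1 and 45.9% for ZEB2. Peaks at a TSS numbered 1 (ZEB1) and 0 (ZEB2) in TRPS1-WT cells within 1 kb of a TSS, and 1 and 0, or 1 and 1 in TRPS1-MT cells, with the canonical TSS only. Within 50 bp of the summit the E-box was at 9 and 10 peaks (12.9% of each list), GATA at 11 and 18 (22% and 21.3%), AP-1 at 1 and 2 (5.18% and 2.94%), and TEAD at 6 and 5 (7.05% and 6.09%). As fold instead of tags the ratio was 0.631 at ZEB1 −76.2 kb, 1.51 at +71.8 kb and 1.38 at +107 kb. At −76.2 kb the tag ratio divided by the median tag ratio was 0.637. Summits of about 10 tags are at the limit of what could be called, and the absence of a peak says only that none was detectable at this depth. No paired analysis was possible because each condition had 1 library, and no replicate could be left out.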

Other observations

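Some peaks counted as found in 1 list alone lay close to a peak of the other list. Within 1 kb of one were 7 of the 24 such TRPS1-WT peaks and 5 of the 33 such TRPS1-MT peaks at ZEB1, and 8 of 20 and 5 of 38 at ZEB2. The gap was 9 bp at ZEB1 +21.4 kb and 164 bp at the TSS of GTDC1, where TRPS1-WT cells had 14 tags and TRPS1-MT cells 35. The longest stretch of the ZEB1 window without a peak of either list ran for 35.4 kb from +224 kb, and that of the ZEB2 window for 27.3 kb from +214 kb.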
